A study of Homo sapiens with 2 samples.

Results

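The UGT2B genes examined here encode 6 UDP-glucuronosyltransferases, UGT2B7, UGT2B10, UGT2B11, UGT2B15, UGT2B17 and UGT2B28, and were chosen by symbol. All 6 symbols were found in both expression tables, among 26447 gene symbols and among 22 listed UGT genes. RNA sequencing had been run on 2 libraries from C4-2B ENZR, a human prostate cancer cell line of the LNCaP lineage that resists the antiandrogen drug enzalutamide. The shNRP2 library came from cells with a stable lentiviral hairpin against the coding sequence of NRP2, a co-receptor for semaphorins and VEGF, and their genotype label is NRP2 knockdown. The shControl library came from cells with a non-targeting hairpin, and their genotype label is WT. Both populations had been selected with an antibiotic and were grown with 10% fetal bovine serum in 20 µM enzalutamide. Each arm rests on 1 hairpin and 1 library, and the sources used here do not say whether the selected populations were pools or clones.

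UDP-glucuronosyltransferases sit in the membrane of the endoplasmic reticulum and transfer glucuronic acid from UDP-glucuronic acid to small lipophilic molecules, which makes these soluble enough to leave the cell. UGT2B15 and UGT2B17 are the main enzymes that conjugate dihydrotestosterone and its reduced metabolites in the prostate, and so remove active androgen from the cell. In LNCaP cells, androgens are known to lower the RNA of both genes. The family lies in 1 cluster on chromosome 4, where many members arose by duplication and stay near-identical in sequence.

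That likeness limits how reads can be assigned, so a stretch of the coding sequence is shown in which all 6 members can be told apart. It is the first run of 60 bases that aligned without a gap in every member and differed between all of them, coding bases 26 to 85 counted from the start codon (23 to 82 in UGT2B10), from the GENCODE release 29 principal transcripts (GRCh38). Capitals mark bases that differ from UGT2B15.
UGT2B15: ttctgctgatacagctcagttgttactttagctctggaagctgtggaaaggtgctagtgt
UGT2B17: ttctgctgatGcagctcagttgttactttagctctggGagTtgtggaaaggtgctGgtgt
UGT2B11: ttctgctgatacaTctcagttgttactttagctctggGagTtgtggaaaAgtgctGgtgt
UGT2B28: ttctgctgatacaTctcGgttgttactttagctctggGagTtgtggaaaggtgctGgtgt
UGT2B7: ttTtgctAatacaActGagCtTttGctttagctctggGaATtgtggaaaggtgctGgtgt
UGT2B10: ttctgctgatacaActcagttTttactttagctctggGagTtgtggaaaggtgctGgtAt
UGT2B17 differed from UGT2B15 at 4 of these 60 bases, UGT2B11 and UGT2B28 at 5 each, UGT2B10 at 6 and UGT2B7 at 11. Over the whole coding sequence, UGT2B15 and UGT2B17 were 96.5% identical and UGT2B11 and UGT2B28 97.0%, and UGT2B10 was 94.8% identical to UGT2B11 and 92.7% to UGT2B7. UGT2B15 was 84.5% identical to UGT2B11.

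**Figure D1:**
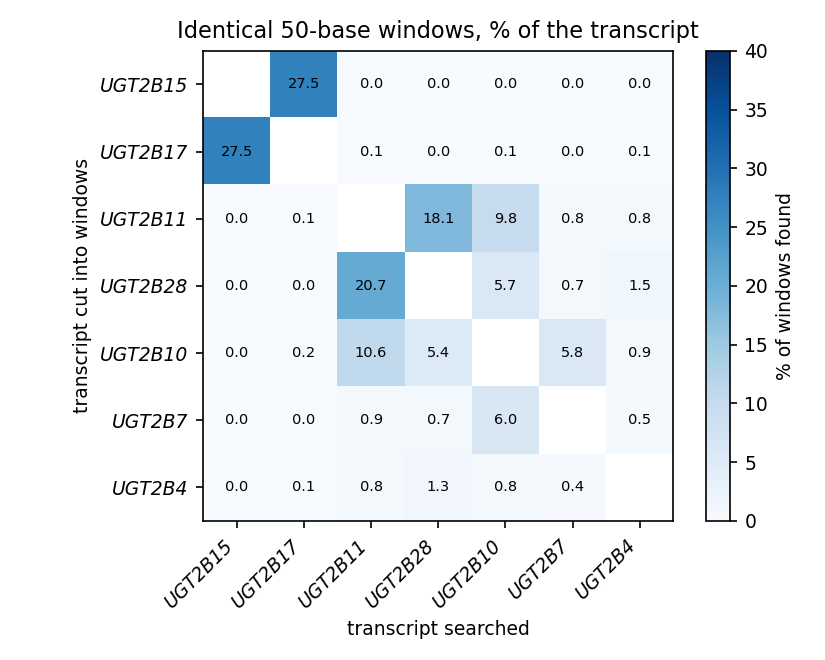
Share of each UGT2B transcript's 50-base windows (rows) that occur letter for letter in another UGT2B transcript (columns), in percent. UGT2B15 and UGT2B17 share 27.5%, UGT2B11 shares windows with UGT2B28 and UGT2B10, and UGT2B10 also shares 5.84% with UGT2B7 and 5.37% with UGT2B28.

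When each transcript was cut into all its 50-base windows, 27.5% of those of UGT2B15 were found unchanged in UGT2B17 and 0 in UGT2B11, UGT2B28, UGT2B7 or UGT2B10. Of the windows of UGT2B10, 10.6% occurred in UGT2B11, 5.84% in UGT2B7 and 5.37% in UGT2B28. With windows of 100 bases, 12.7% of UGT2B15 and 2.73% of UGT2B10 still had a copy in the family. The sources used here give neither the read length nor the rule by which shared reads were assigned. Single members are uncertain to that extent, and sums over near-identical members are given beside them. The UGT2B15 and UGT2B17 pair shared at most 3 windows with any of the other 4 members, so it can be read as a unit apart from them.

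The depth behind these values was 22949961 reads on genes in the shNRP2 library and 21014142 in the shControl library, recovered from the deposited values. Levels are given as deposited, in what the authors' table names call TMM-normalized CPM, and are not scaled to equal library totals. On that scale 1 read is worth 0.0472 CPM in the shNRP2 library and 0.0487 CPM in the shControl library. With 1 library per group there is no spread between replicates and no test between the conditions. All differences describe these 2 libraries, and the 95% intervals cover counting error only. NRP2, the targeted gene, had 0.330 CPM (7 reads) in the shNRP2 library, against 0.974 CPM (20 reads) in the shControl library, a ratio of 0.339 (0.121 to 0.835). Its paralog NRP1 had 31.0 CPM (657 reads) in the shNRP2 library, against 76.7 CPM (1576 reads) in the shControl library, 2.48-fold lower (2.26 to 2.72). All 10 prostate epithelial markers checked were present. Because UGT2B genes are best known from the liver, 9 hepatocyte markers were also read: together they held 7.17 CPM in the shNRP2 library and 9.40 CPM in the shControl library, with APOA2 and FGB at 0 reads in both. Albumin (ALB) was the only 1 of 4 compared hepatocyte markers past 1.5-fold, where 3.57% of all genes compared were lower by that much. It had 1.08 CPM (23 reads) in the shNRP2 library, against 2.82 CPM (58 reads) in the shControl library. The part of these markers in the UGT2B values was not tested. Summed markers of stroma held 36.7 CPM in the shNRP2 library and 45.5 CPM in the shControl library, with DCN and DES at 0 reads in both. Most of that was COL1A1, at 32.5 CPM (shNRP2) and 41.5 CPM (shControl), while ACTA2 lay the other way, at 2.03 and 1.56 CPM. Intestinal markers held 0.943 CPM in the shNRP2 library and 1.17 CPM in the shControl library. In the same order, immune markers held 10.1 and 7.16 CPM, mostly CD68 (9.95 and 6.67 CPM), and endothelial markers held 3.87 and 3.75 CPM.

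Of the 4 members with enough reads to be compared singly, UGT2B15, UGT2B17 and UGT2B11 were lower in the shNRP2 library and UGT2B10 was higher by value. The 6 members together held 24.1 CPM (512 reads) in the shNRP2 library, against 36.4 CPM (747 reads) in the shControl library. The sum was 1.51-fold lower, with a counting interval from 1.34 to 1.69. In bulk RNA, fewer cells that express a gene and less RNA per cell cannot be told apart. The log2 change of the sum, taken as log2((shNRP2 CPM + 1)/(shControl CPM + 1)), was -0.57. By value, 5 members were lower and 1 was higher, but UGT2B28 and UGT2B7 had 3 to 6 reads in a library and no detectable difference. Of the 4 members compared, 3 had a log2 change below 0, where 45.9% of all genes compared did. Under equal library totals, a median change of 0 and quantile normalization the ratio of the sums stayed below 1, between 0.628 and 0.651, against 0.664 as deposited.

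**Figure D2:**
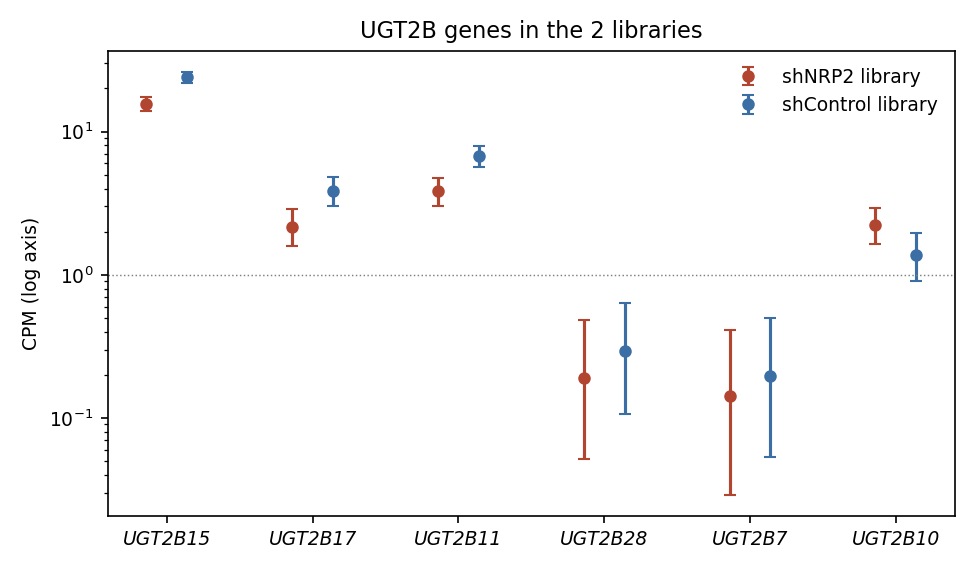
CPM of the 6 UGT2B genes (log axis) in the shNRP2 library (left point of each pair) and the shControl library (right point), with exact Poisson 95% counting intervals; the dotted line marks 1 CPM. UGT2B15, UGT2B17 and UGT2B11 sit lower in the shNRP2 library without overlap of the intervals, and UGT2B28 and UGT2B7 rest on 3 to 6 reads.

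UGT2B15, the member with the most reads, conjugates dihydrotestosterone and androstanediol. It had 15.6 CPM (331 reads) in the shNRP2 library, against 23.9 CPM (491 reads) in the shControl library. The ratio was 1.53-fold lower (1.33 to 1.77) and the log2 change -0.58. It gave 64.6% of the family's reads in the shNRP2 library (exact binomial interval 60.3% to 68.8%) and 65.7% in the shControl library (62.2% to 69.1%), shares that overlap within counting error.

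UGT2B17 conjugates testosterone, dihydrotestosterone and androsterone. It had 2.17 CPM (46 reads) in the shNRP2 library, against 3.85 CPM (79 reads) in the shControl library. This was 1.77-fold lower (1.22 to 2.61), with a log2 change of -0.61. Since UGT2B15 and UGT2B17 share windows, their sum is the safer value: 17.8 CPM (377 reads) in the shNRP2 library, against 27.8 CPM (570 reads) in the shControl library, 1.56-fold lower (1.37 to 1.78). The change of UGT2B17 relative to that of UGT2B15 was a ratio of ratios of 0.864 (0.571 to 1.29), so no difference between the 2 genes was detectable at this depth.

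UGT2B11, whose own substrates are less well defined, had 3.82 CPM (81 reads) in the shNRP2 library, against 6.77 CPM (139 reads) in the shControl library. It was 1.77-fold lower (1.34 to 2.36), with a log2 change of -0.69, the lowest of the 4 members compared. Its near-identical relative UGT2B28, which also acts on androgens, had 0.189 CPM (4 reads) in the shNRP2 library and 0.292 CPM (6 reads) in the shControl library, and its ratio of 0.646 (0.134 to 2.72) held no detectable difference. Both genes together had 4.01 CPM in the shNRP2 library, against 7.06 CPM in the shControl library, 1.76-fold lower (1.34 to 2.33).

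UGT2B10, known for the glucuronidation of nicotine and other amines rather than androgens, lay the other way. It had 2.22 CPM (47 reads) in the shNRP2 library, against 1.36 CPM (28 reads) in the shControl library. The ratio of 1.63 had an interval from 0.997 to 2.70, so a difference between the libraries was not resolved, and the log2 change was 0.44. Its change relative to that of UGT2B15 was a ratio of ratios of 2.49 (1.49 to 4.22), and relative to that of UGT2B11 it was 2.87 (1.62 to 5.16). Ratios of ratios, here and for UGT2B17, were not among the planned comparisons, so these intervals are descriptions only. UGT2B10 made up 9.18% of the family's reads in the shNRP2 library (6.82% to 12.0%) and 3.75% in the shControl library (2.50% to 5.37%). The values of UGT2B10 and UGT2B11 depend on how the windows they share were assigned, and that part was not tested. UGT2B10, UGT2B11 and UGT2B28 summed to 6.23 CPM in the shNRP2 library, against 8.42 CPM in the shControl library, a ratio of 0.739 (0.585 to 0.932). UGT2B7, a broad enzyme for opioids, steroids and drugs, had 0.141 CPM (3 reads) in the shNRP2 library and 0.195 CPM (4 reads) in the shControl library, too few to compare.

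**Figure D3:**
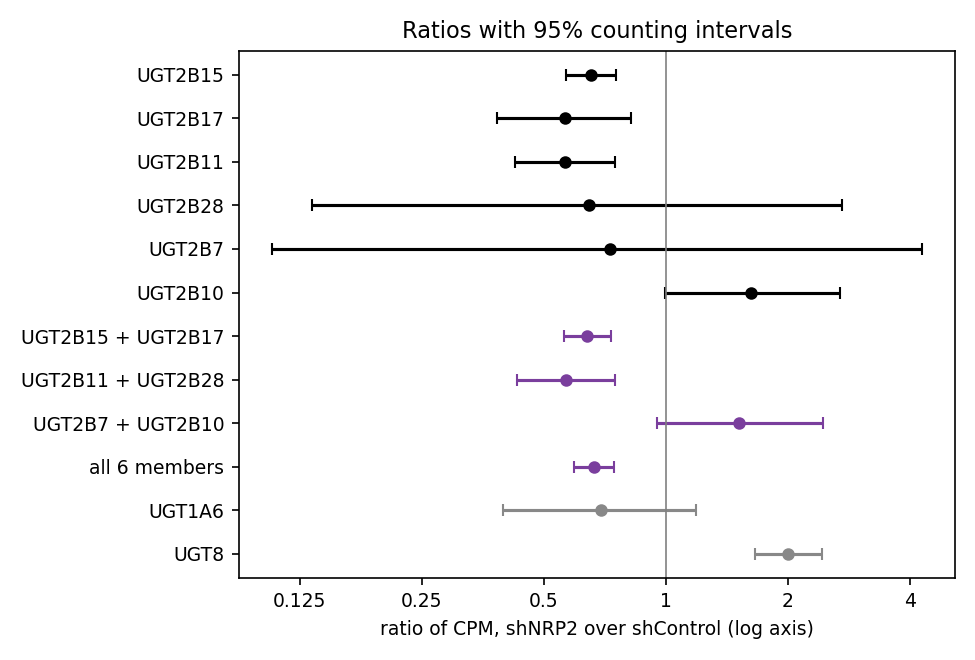
Ratio of CPM, shNRP2 over shControl (log axis), with exact conditional binomial 95% counting intervals, for the 6 members (black), sums of members (purple) and the other UGT genes that averaged 1 CPM or more (grey). The intervals of UGT2B15, UGT2B17 and UGT2B11 and of the sum of all 6 lie below 1, and that of UGT2B10 reaches from 0.997 to 2.70.

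Levels of different genes were compared per kilobase of the principal transcript. In the shNRP2 library the order was UGT2B15 at 7.52 CPM per kilobase, UGT2B11 at 1.83, UGT2B10 at 1.15, UGT2B17 at 1.04, UGT2B28 at 0.103 and UGT2B7 at 0.0750. In the shControl library it was UGT2B15 at 11.5 CPM per kilobase, UGT2B11 at 3.24, UGT2B17 at 1.85, UGT2B10 at 0.706, UGT2B28 at 0.159 and UGT2B7 at 0.103. UGT2B10 and UGT2B17 thus exchanged places, but in the shNRP2 library their counting intervals overlapped (0.843 to 1.53 for UGT2B10 and 0.765 to 1.39 for UGT2B17), and that of UGT2B10 also met that of UGT2B11 (1.45 to 2.27). In the shControl library the intervals of UGT2B10 (0.469 to 1.02) and UGT2B17 (1.47 to 2.31) did not meet. UGT2B28 and UGT2B7 overlapped in both.

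Against the transcriptome, 4 of the 6 members averaged 1 CPM or more across the libraries and were set among the 13316 genes that passed this filter; UGT2B28 and UGT2B7 did not pass. On the log2(CPM + 1) scale, which understates the change of low genes, UGT2B11 and UGT2B17 were at least 1.5-fold lower, 2 of 4, where 3.57% of all genes compared were. None of the 4 was at least 1.5-fold higher, where 5.78% of all genes were. The threshold lies 0.585 from 0 on the log2 scale, so UGT2B15 was just outside it at -0.584 and UGT2B17 just inside it at -0.613. UGT2B15 also passed when library totals were set equal, when the median change was set to 0 and under quantile normalization. The median log2 change was -0.60 over the 4 members and 0.03 over all genes compared. No member reached 2-fold lower, a fold that 0.526% of the genes passed.

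Counting intervals below 1 were found for UGT2B15, UGT2B17 and UGT2B11, 3 of 4, and for 24.0% of all genes compared. An interval above 1 was found for 0 of the 4, and for 32.7% of all genes compared. An exact binomial test per gene on whole reads, added after the values were seen and adjusted by the Benjamini-Hochberg method over all genes, called 52.2% of the genes, 22.0% as lower. It called UGT2B15, UGT2B17 and UGT2B11 lower, 3 of 4, and did not call UGT2B10. That test compares these 2 libraries and not the conditions. Of the genes compared, 2.18% had a log2 change at or below that of UGT2B11, 3.16% at or below that of UGT2B17, 3.60% at or below that of UGT2B15 and 90.7% at or below that of UGT2B10.

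**Figure D4:**
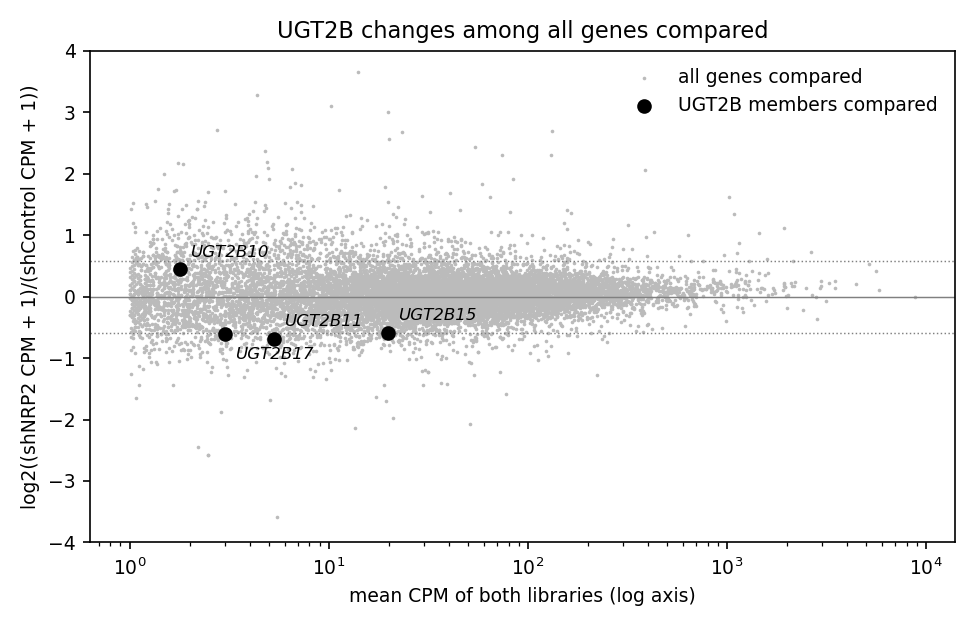
Log2 change (shNRP2 over shControl, 1 CPM added to each) against mean CPM (log axis) for the 13316 genes compared (grey) and the 4 UGT2B members among them (black); dotted lines mark 1.5-fold. UGT2B11, UGT2B17 and UGT2B15 lie at the lower line, at -0.69, -0.61 and -0.58, and UGT2B10 lies at 0.44.

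On chromosome 4 the members stand in the order UGT2B17, UGT2B15, UGT2B10, UGT2B7, UGT2B11 and UGT2B28, with UGT2A3 between UGT2B10 and UGT2B7, TMPRSS11E before them and UGT2B4 after them (RefSeq, GRCh38.p14; the tables were made on hg19). The 4 neighbours that averaged 1 CPM or more did not pass 1.5-fold either way on the log2(CPM + 1) scale. Of all genes compared, 3.57% were at least that much lower and 5.78% higher. YTHDC1, a reader of methylated adenosine in RNA, had 87.2 CPM in the shNRP2 library and 88.3 CPM in the shControl library, and the serine protease gene TMPRSS11E had 1.89 CPM (40 reads) in the shNRP2 library and 1.17 CPM (24 reads) in the shControl library, a plain ratio of 1.61 with a counting interval that included 1. UGT2B10, with the opposite sign, thus lies between UGT2B15 and UGT2B11. UGT2B4, a bile acid and steroid UGT that follows UGT2B28, had 0.0472 CPM (1 read) in the shNRP2 library, against 0.779 CPM (16 reads) in the shControl library. The ratio was 0.0605, with an interval from 0.00144 to 0.390, and UGT2B4 was below the level at which genes were compared.

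The 250 bases before the gene start are shown for UGT2B15 and UGT2B11, which were lower, and for UGT2B10, which was not, because UGT2B11 and UGT2B10 are nearly alike there too. They come from RefSeq (GRCh38.p14), for UGT2B15 chr4:68670653-68670902 on the minus strand, for UGT2B11 chr4:69214749-69214998 on the minus strand and for UGT2B10 chr4:68815744-68815993 on the plus strand, each written 5′ to 3′ toward the gene. Capitals mark matches to the motifs searched.
UGT2B15: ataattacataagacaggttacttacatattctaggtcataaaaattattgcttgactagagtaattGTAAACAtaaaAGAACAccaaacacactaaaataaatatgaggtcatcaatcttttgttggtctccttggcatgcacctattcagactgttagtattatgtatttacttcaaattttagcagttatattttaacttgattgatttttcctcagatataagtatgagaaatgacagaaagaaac
UGT2B11: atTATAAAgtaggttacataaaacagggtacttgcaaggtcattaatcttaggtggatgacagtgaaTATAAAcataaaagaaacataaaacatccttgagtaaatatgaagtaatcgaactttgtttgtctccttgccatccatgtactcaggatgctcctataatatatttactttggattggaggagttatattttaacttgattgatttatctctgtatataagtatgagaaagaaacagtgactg
UGT2B10: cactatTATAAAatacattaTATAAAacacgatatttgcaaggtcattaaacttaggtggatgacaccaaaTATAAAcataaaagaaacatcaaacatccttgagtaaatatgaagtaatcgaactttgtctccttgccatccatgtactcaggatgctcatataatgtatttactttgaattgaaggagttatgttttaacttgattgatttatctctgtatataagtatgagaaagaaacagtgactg
Of the 6 members, 4 matched the promoter table by symbol, these 3 and UGT2B7, and UGT2B17 and UGT2B28 did not. The UGT2B11 and UGT2B10 stretches were 90.2% identical after alignment, and those of UGT2B15 and UGT2B11 were 70.0% identical. Both strands were searched, and 3 of the motifs searched are given here. The UGT2B15 stretch held the FOXA motif TGTTTAC on the minus strand of the gene, first base 183 bases before the start, where 2.98% of 35116 promoters held it, and the steroid hormone response half-site AGAACA 172 bases before the start, where 12.4% did. Neither motif was in the UGT2B11, UGT2B10 or UGT2B7 stretches. The TATA box letters TATAAA stood 248 and 183 bases before the start in UGT2B11 and 244, 230 and 179 bases before it in UGT2B10, and were in 10.7% of promoters. The motifs can overlap, and a match describes letters only.

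The other enzymes of glucuronidation were measured beside the family. Of 16 UGT genes outside the 6 members, 9 had 0 reads in both libraries, which allows up to 0.141 CPM in the shNRP2 library and 0.146 CPM in the shControl library, and 2 averaged 1 CPM or more. UGT8, which makes galactosylceramide and does not conjugate androgens, had 16.1 CPM (341 reads) in the shNRP2 library, against 8.03 CPM (165 reads) in the shControl library, 2.00-fold higher (1.66 to 2.43). UGT1A6, a phenol UGT, had 1.18 CPM (25 reads) in the shNRP2 library and 1.70 CPM (35 reads) in the shControl library, a ratio of 0.692 (0.397 to 1.19). The UGT1A genes share their last exons, and their 9 symbols together held 2.31 CPM in the shNRP2 library and 2.19 CPM in the shControl library, a ratio of 1.05 (0.689 to 1.62).

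Genes that supply the sugar donor were read as well. Of 9 genes for UDP-glucuronic acid supply and for the reverse reaction, none passed 1.5-fold either way, and the median log2 change was 0.11. Over all genes compared, 3.57% were at least 1.5-fold lower and 5.78% higher, so few of 9 would pass at those shares. UGDH, which makes UDP-glucuronic acid, had 109 CPM in the shNRP2 library and 123 CPM in the shControl library. PGM1, a phosphoglucomutase upstream of UDP-glucose, had 124 CPM in the shNRP2 library and 88.6 CPM in the shControl library, a ratio of 1.40. GUSB, the lysosomal beta-glucuronidase that removes glucuronic acid, had 84.8 CPM in the shNRP2 library and 90.2 CPM in the shControl library. Among 3 compared transporters that can carry glucuronides out of cells, ABCC4 had 38.8 CPM in the shNRP2 library, against 24.4 CPM in the shControl library, 1.59-fold higher (1.42 to 1.78). It was no longer past the 1.5-fold threshold when library totals were set equal. ABCC1 had 152 CPM in the shNRP2 library and 110 CPM in the shControl library.

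Of the enzymes that remove androgen by other routes, 0 of 9 compared passed 1.5-fold in either direction on the log2(CPM + 1) scale. Of all genes compared, 3.57% were that much lower and 5.78% higher. The median log2 change of the 9 was 0.29. HSD17B4, a peroxisomal enzyme that can oxidise sex steroids, had 149 CPM in the shNRP2 library and 147 CPM in the shControl library. HSD17B10, a mitochondrial dehydrogenase that also acts on steroids, had 127 CPM in the shNRP2 library and 142 CPM in the shControl library. AKR1C2, which reduces dihydrotestosterone to androstanediol, was picked out after its value was seen. It had 1.98 CPM (42 reads) in the shNRP2 library and 1.17 CPM (24 reads) in the shControl library, a plain ratio of 1.70 (1.003 to 2.93). Its relative AKR1C1 had 2.31 CPM (49 reads) in the shNRP2 library and 2.48 CPM (51 reads) in the shControl library. That ratio was 0.931 (0.616 to 1.41), and how reads were split between AKR1C1 and AKR1C2 was not tested. Of androgen-synthesizing genes 0 of 6 passed, beside 3.57% lower and 5.78% higher of all genes compared, with a median log2 change of 0.22. SRD5A1, a steroid reductase that makes dihydrotestosterone, had 20.6 CPM in the shNRP2 library and 17.1 CPM in the shControl library, and SRD5A3 had 65.4 CPM in the shNRP2 library and 53.6 CPM in the shControl library.

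Factors known from the literature to act on UGT2B genes went both ways. Of 10 described here, AHR was at least 1.5-fold lower and PPARA at least 1.5-fold higher, beside 3.57% and 5.78% of all genes compared. The median log2 change of the 10 was -0.08. FOXA1, a pioneer factor of luminal prostate cells, had 302 CPM in the shNRP2 library, against 453 CPM in the shControl library, a ratio of 0.667 (0.646 to 0.689) and a log2 change of -0.58, just short of the threshold, which it passed under the 3 other scalings. AHR, the aryl hydrocarbon receptor, had 7.59 CPM in the shNRP2 library, against 14.7 CPM in the shControl library. PPARA, a fatty acid receptor, had 33.7 CPM in the shNRP2 library, against 18.1 CPM in the shControl library. A log2 change below 0 was found in 6 of the 10, where 45.9% of all genes compared were below 0. Under each of the 3 other scalings, 2 of the 10 were at least 1.5-fold lower and 1 was higher. HOXB13, a prostate homeobox factor, had 486 CPM in the shNRP2 library and 511 CPM in the shControl library. The receptors NR1H4, NR1I2 and NR1I3 and the factor HNF4A had 0 reads in both libraries.

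Many androgen-induced genes were higher in the shNRP2 library. Of 13 compared, 7 were at least 1.5-fold higher (KLK2, KLK3, NDRG1, TRPM8, ZBTB16, TMPRSS2 and ABCC4) and 0 lower, where 5.78% of all genes compared were higher and 3.57% lower, with a median log2 change of 0.63, and with equal library totals 5 were higher. The list was not uniform: 3 of the 13 had a log2 change below 0, where 45.9% of all genes compared did. Among these 3, ACPP had a ratio of 0.742 (0.676 to 0.815) and SLC45A3 a ratio of 0.833 (0.731 to 0.949). KLK3, which encodes prostate-specific antigen, had 41.0 CPM in the shNRP2 library, against 5.60 CPM in the shControl library. TMPRSS2 had 181 CPM in the shNRP2 library, against 117 CPM in the shControl library. A list of androgen-repressed genes did not move as 1 group: without UGT2B15 and UGT2B17, which are on it, 1 of 5 compared genes was at least 1.5-fold lower and 1 higher, beside 3.57% and 5.78% of all genes compared. OPRK1, the kappa opioid receptor, had 7.97 CPM in the shNRP2 library, against 34.2 CPM in the shControl library, and PEG10 had 7.64 CPM in the shNRP2 library, against 4.28 CPM in the shControl library. Whether these genes and the UGT2B members share a cause was not tested.

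**Figure D5:**
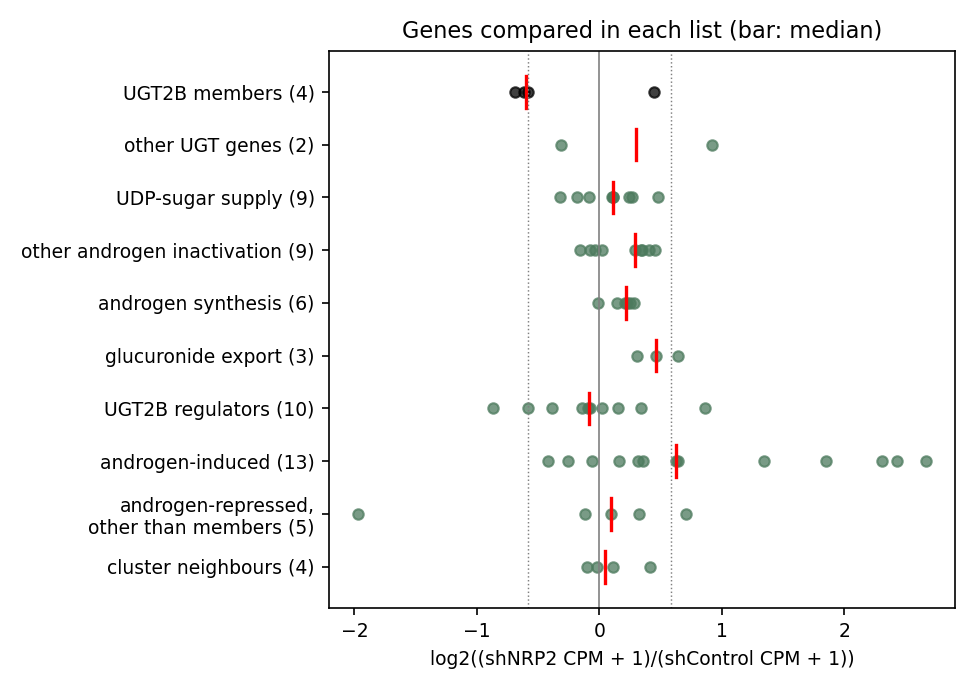
Log2 change (shNRP2 over shControl, 1 CPM added to each) of the genes in each list that averaged 1 CPM or more, 1 point per gene, number of genes in brackets, red bar at the median; dotted lines mark 1.5-fold. Of the 4 UGT2B members, 3 lie between -0.69 and -0.58 and UGT2B10 lies at 0.44, with a median of -0.60. The medians of the other lists lie between -0.08 (UGT2B regulators) and 0.63 (androgen-induced).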

How the data were processed

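RNA of 2 libraries, 1 per group, was measured by sequencing. The submitters' processing notes list RSEM 1.2.15, Bowtie2 2.1.0, bcl2fastq 2.17 and edgeR, with build hg19. The sources used here give neither their roles nor the annotation or strandedness. The authors deposited a signal for each gene symbol, which the authors' table names call TMM-normalized read counts (CPM). The columns sum to 1084413 (shNRP2) and 1024943 (shControl), so they are not plain CPM, as had been assumed; they were used as deposited. All values (100%) were whole multiples of 1 read within 0.01 read, so whole reads were recovered; whether these were rounded estimates is not stated. A test on these reads called 6954 of 13316 genes. Another 28 symbols, turned into dates, held 0.184% of shNRP2 reads and 0.181% of shControl reads and were left out.

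Ratios have exact conditional binomial (Clopper-Pearson) 95% intervals, tested on simulated data. A zero allows 3 reads. Without molecular identifiers reads are not independent molecules. Named genes were the members, list genes past 1.5-fold, otherwise up to 4 of the most abundant or largest changes of a list, UGT genes with a read, and the 5 genes nearest to the family sum. Sequences were aligned with Biopython 1.88. Some list genes and motifs are not reported here. Members and lists were chosen with earlier results of these data known. Python 3.11.15, numpy 2.4.6, pandas 2.3.3, scipy 1.17.1 and matplotlib 3.10.9 were used. Alternatives were pseudocounts of 0.25 and 5 CPM, other filters, scalings and thresholds.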

Additional observations from a re-analysis of the deposited data

How the results depend on the processing

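No paired analysis was possible because each group holds 1 library. Alternative values numbered 30 for the 6 members (2 other pseudocounts and 3 scalings each), 10 for the family sum and 9 for the sums of member pairs. All of these alternatives stayed within the counting interval of the value as deposited. That check is weak, because the intervals are wider than the shifts the scalings made. For the family sum the scalings gave ratios of 0.628 to 0.651, inside an interval of 0.592 to 0.744. The check says least for UGT2B28 and UGT2B7, whose intervals on 3 to 6 reads are wide. The ratio of the family sum ranged from 0.627 to 0.687. The number of UGT2B members at least 1.5-fold lower was 2, and became 0 with a pseudocount of 5 CPM, 1 with a filter at a mean of 5 CPM and 0 at a 2-fold threshold; it was 3 with a pseudocount of 0.25 CPM, with each of the 3 scalings, by counting intervals and by the plain ratio and the binomial test, both added after seeing the data, and 2 with no filter. Over all genes compared, 476 were lower and 769 higher, a share of 61.8% higher; these counts were 159 and 329 with a pseudocount of 5 CPM, 310 and 465 with a filter at a mean of 5 CPM, 70 and 194 at 2-fold, and 2926 and 4028 by the binomial test. With equal library totals, 646 were lower and 587 higher, a share of 47.6% higher. A larger pseudocount shrinks the change of low genes by construction, and higher filters and thresholds keep fewer genes. Depth limits UGT2B28 and UGT2B7, with 3 to 6 reads in a library, and leaves UGT2B10 unresolved.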

Other observations

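Among UGT genes under a mean of 1 CPM, UGT1A3 had 12 reads in the shNRP2 library and 0 in the shControl library, and the counting interval of its ratio started at 2.69. UGT1A7 had 6 reads in the shNRP2 library and 0 in the shControl library, with an interval that started at 1.14. UGT1A1 had 0 reads in the shNRP2 library and 5 in the shControl library, with an interval that reached up to 1.06, so a difference was not resolved. These genes share exons, so the split among them is uncertain.

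The 5 genes whose log2(CPM + 1) lay nearest to the UGT2B family sum over the 2 libraries, by Euclidean distance, were TMEM41A (0.0131), USP36 (0.0156), THNSL1 (0.0290), the readthrough model STAG3L5P-PVRIG2P-PILRB (0.0389) and DHX34 (0.0447). With 2 libraries this names genes of like level and like ratio only.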
